A study of Mus musculus with 4 samples.

Results

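Lens crystallin transcripts were examined in RNA-seq libraries of the E13.5 mouse retina. The genes were 10 of the 24062 in the count table: the alpha crystallins Cryaa and Cryab, the beta crystallins Cryba1, Cryba2, Cryba4, Crybb1, Crybb2 and Crybb3, and the gamma crystallins Crygn and Crygs. They were chosen by family name and by their difference between the genotypes in these same libraries, so their differences are given as a description and not as a test. All 10 were in the table and passed the filter on low counts. Crybb2 and Crygs passed it only through the Nrf1-CKO libraries, and the other 8 had at least 10 reads in every library.

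The study compared 2 wildtype libraries with 2 Nrf1-CKO libraries, all from C57BL/6 129 mixed embryos at E13.5. In the Nrf1-CKO group (Nrf1 f/f;Six3-Cre) both alleles of Nrf1, a transcription factor for genes of mitochondrial biogenesis, were floxed, and the Six3-Cre transgene drove recombination in retinal progenitor cells, beginning in the central retina. Cells in which Cre was not active kept both floxed alleles intact. Each library came from pooled retinas of several littermates, so the spread between replicates is that between 2 pools. Retinas were removed by dissection without sorting of cells. Between 74577660 and 85933945 reads were counted on genes in each library. Reads over the whole Nrf1 gene came to 9052 and 7789 in wildtype and 8594 and 8284 in Nrf1-CKO libraries. These counts include the exons that Cre leaves in place, so they hold no check of the deletion.

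Crystallins are the abundant soluble proteins of the lens. The alpha crystallins belong to the small heat shock proteins and act as chaperones that keep other proteins from aggregating. The beta and gamma crystallins share a fold made of Greek key motifs and pack densely in lens fiber cells, which gives the lens its refractive power. Their genes are switched on as lens cells differentiate, under transcription factors that include Pax6, Maf, Sox1, Prox1 and Hsf4. Low levels of some crystallins are also known from the retina, where Cryab in particular is a stress-responsive chaperone.

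The genes lie on 6 chromosomes, and 5 of them lie on chromosome 5. In GENCODE annotation of GRCm38, Cryba4 (chr5:112246493-112252518, minus strand) and Crybb1 (chr5:112255815-112269585, plus strand) start 3297 bases apart and point away from each other. Crybb2 (chr5:113058258-113070117) and Crybb3 (chr5:113075839-113081584) follow each other on the minus strand with 5722 bases between them. Crygn lies elsewhere on the same chromosome (chr5:24751003-24758008, minus strand). Cryaa is on chr17:31677807-31681733 (plus strand), Cryab on chr9:50751325-50756636 (plus strand), Cryba1 on chr11:77718615-77725283 (minus strand), Cryba2 on chr1:74889934-74893143 (minus strand) and Crygs on chr16:22805203-22811577 (minus strand). The counts cover their exons, from 3 in Cryaa to 7 in Crybb2.

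The sequence just before the start of 5 of these genes is given here, 120 bases of RefSeq GRCm38.p6 read 5′ to 3′ on the strand of the gene. The pairs from chromosome 5 are shown because Crybb1 and Cryba4 share their intergenic region, while Crybb3 and Crybb2 are adjacent genes with very different read counts. Cryba1 is shown as a highly expressed gene from another chromosome. Capitals mark TGCTGA or its reverse complement TCAGCA, the core letters of the element that large Maf proteins recognize, and TATAAA, the letters of a TATA box.
Crybb1 (chr5:112255695-112255814, plus strand): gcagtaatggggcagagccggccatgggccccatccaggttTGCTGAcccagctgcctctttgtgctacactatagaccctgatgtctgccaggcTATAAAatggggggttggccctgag
Cryba4 (chr5:112252519-112252638, minus strand): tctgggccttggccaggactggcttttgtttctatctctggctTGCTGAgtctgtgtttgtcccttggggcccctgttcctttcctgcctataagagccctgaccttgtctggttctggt
Crybb3 (chr5:113081585-113081704, minus strand): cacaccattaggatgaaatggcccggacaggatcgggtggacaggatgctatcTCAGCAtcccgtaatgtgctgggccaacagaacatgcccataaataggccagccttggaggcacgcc
Crybb2 (chr5:113070118-113070237, minus strand): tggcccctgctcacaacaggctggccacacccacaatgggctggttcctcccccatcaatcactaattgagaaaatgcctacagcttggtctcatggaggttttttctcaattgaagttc
Cryba1 (chr11:77725294-77725413, minus strand): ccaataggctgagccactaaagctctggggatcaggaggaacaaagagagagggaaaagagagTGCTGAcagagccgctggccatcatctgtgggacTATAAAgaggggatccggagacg

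RefSeq promoters, taken as 250 bases before to 50 bases after the start, were matched for 9 of the 10 genes, all but Cryab. TGCTGA was searched on both strands and was present in 8 of these 9 promoters, that is in all but that of Crybb2. The same letters occurred in 19.5% of all 32851 promoters of this length. Counted in bases from the RefSeq start, they began at -84 in Crybb1, -57 in Cryba1, -108 in Cryaa and, on the opposite strand, -67 in Crybb3. For Cryaa the RefSeq start (chr17:31677931) lies inside the GENCODE gene given above, and so does this match. The promoter of Cryba4 held them at -182, -135 and -77, of which the last lies in the stretch shown. TATAAA, searched on both strands, was present in 4 of the 9 promoters, those of Cryba1, Cryba2, Crybb1 and Crygs, and in 13.6% of all promoters. GAANNTTC, the core of a heat shock element, was present in none of the 9 and in 7.86% of all promoters. These matches describe the letters in the window and no binding was measured.

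All 10 genes had more reads in both Nrf1-CKO libraries than in either wildtype library. Together they took 14211 and 32297 reads in wildtype replicates 1 and 2, and 765025 and 311592 reads in Nrf1-CKO replicates 1 and 2. This was 0.0165% and 0.0433% of the reads on genes in wildtype and 0.916% and 0.374% in Nrf1-CKO libraries. With edgeR's TMM scaling, their summed level was 162.3 and 435.4 CPM (counts per 1000000 reads on genes) in wildtype and 9209 and 3766 CPM in Nrf1-CKO libraries, and the ratio of the 2 means was 21.7. The median log2 fold change of the 10 genes was 4.52, with a range from 3.13 to 6.45, against a median of 0.000728 over the 15762 genes tested. A gene was called when it changed at least 1.4-fold with an adjusted p no higher than 0.2 in edgeR's quasi-likelihood test. By this rule 12.8% of all genes tested were called higher and 8.04% lower in Nrf1-CKO. All 10 crystallins were among those called higher, and nothing is read from this count, since the genes were selected on this contrast. Both Nrf1-CKO libraries lay above both wildtype libraries for 30.9% of all genes tested and for all 10 crystallins.

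Some other genes of the lens were also higher in Nrf1-CKO. Of 11 lens fiber genes tested that are not crystallins, 9 were called higher. Of 12 lens regulators 7 were, beside 12.8% of all genes tested. The summed level of 13 lens fiber genes that are not crystallins was 41.2 and 99.5 CPM in wildtype and 1730 and 689 CPM in Nrf1-CKO libraries, with only Dnase2b at 0 in all 4. The part of lens or other tissue in the crystallin levels was not tested. In pooled tissue, more cells of a type and more RNA per cell cannot be told apart, nor can lens tissue in the preparation and crystallin expression by retinal cells.

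**Figure D1:**
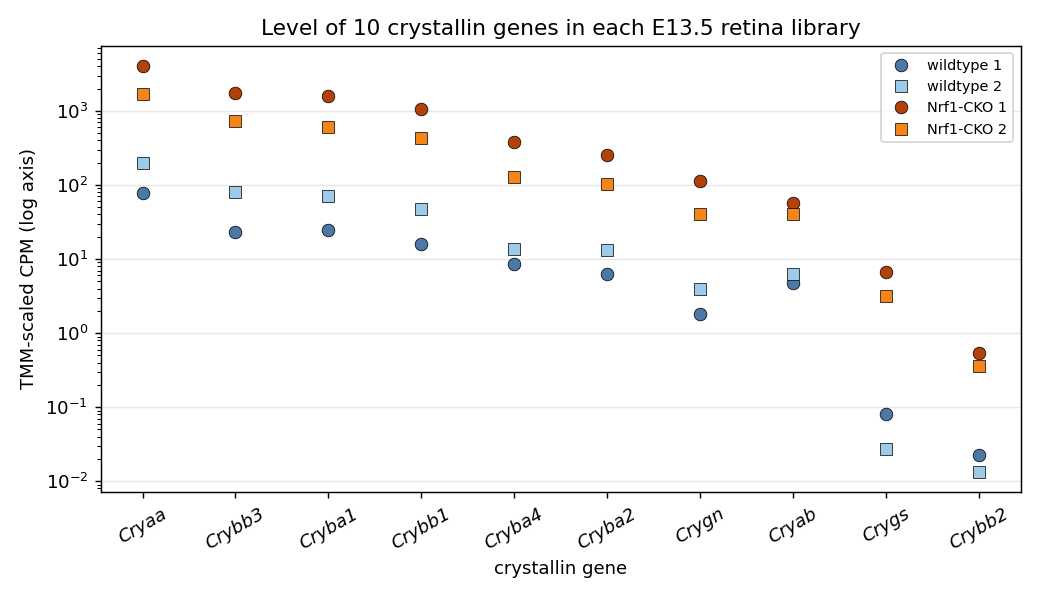
Level of each of the 10 crystallin genes (TMM-scaled CPM, log axis) in each library, with circles for replicate 1 and squares for replicate 2 and no error bars, since every library is drawn. For every gene both Nrf1-CKO points lie above both wildtype points, and Nrf1-CKO replicate 1 lies above replicate 2.

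Cryaa encodes alpha A crystallin, a chaperone largely restricted to the lens. It had 6746 and 14696 reads in wildtype and 333178 and 140420 in Nrf1-CKO libraries. The groups were far apart, and the libraries within each group also differed widely. Its level was 137.6 ± 85.6 CPM in wildtype and 2854 ± 1636 CPM in Nrf1-CKO (SD, n = 2), a ratio of 20.7. The lower Nrf1-CKO library was 8.57 times the higher wildtype library. The log2 fold change was 4.38, with a standard error (SE) of 0.505.

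Cryab encodes alpha B crystallin, a chaperone that is also made in muscle, glia and other tissues. It had 415 and 469 reads in wildtype and 4671 and 3337 in Nrf1-CKO libraries, so that the replicates were closer to each other than those of any other of the 8 genes with at least 10 reads throughout. Its level was 5.53 ± 1.12 CPM in wildtype and 48.3 ± 11.2 CPM in Nrf1-CKO (SD, n = 2), a ratio of 8.73. Its log2 fold change of 3.13 (SE 0.191) was the lowest of the 10 genes. Of the 100-base windows of its transcript, 15.0% are shared with Hspb2, a small heat shock protein gene that overlaps it on the opposite strand. The counting is not stated to use strand, so reads of the shared stretch cannot be assigned to 1 of the 2 genes. Hspb2 itself had 9 and 11 reads in wildtype and 99 and 57 in Nrf1-CKO libraries, far fewer than Cryab.

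Cryba1, Cryba2 and Cryba4 are acidic beta crystallins, structural proteins of lens fibers. Cryba1 had 2145 and 5290 reads in wildtype and 131140 and 49407 in Nrf1-CKO libraries. Its level was 47.9 ± 33.1 CPM against 1088 ± 694 CPM (SD, n = 2), and the log2 fold change was 4.51 (SE 0.569). Cryba1 is also known from astrocytes of the retina. Cryba2 had 558 and 995 reads in wildtype and 21221 and 8418 in Nrf1-CKO libraries. Its level was 9.89 ± 4.98 CPM against 179 ± 109 CPM (SD, n = 2), and the log2 fold change was 4.18 (SE 0.46). Cryba4 had 747 and 1026 reads in wildtype and 31929 and 10625 in Nrf1-CKO libraries. Its level was 11.2 ± 3.75 CPM against 256 ± 181 CPM (SD, n = 2), and the log2 fold change was 4.52 (SE 0.479). In each of the 3 genes the lower Nrf1-CKO library was well above the higher wildtype library, by 7.58 times in Cryba2, 8.37 times in Cryba1 and 9.28 times in Cryba4.

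Of the basic beta crystallins, Crybb1 and Crybb3 had at least 1407 reads in every library and Crybb2 at most 45. Crybb1, an early gene of fiber differentiation, had 1407 and 3525 reads in wildtype and 87474 and 35088 in Nrf1-CKO libraries. Its level was 31.8 ± 22.2 CPM against 739 ± 445 CPM (SD, n = 2), and the log2 fold change was 4.54 (SE 0.556). Crybb3 had 2023 and 5999 reads in wildtype and 145488 and 60596 in Nrf1-CKO libraries. Its level was 52.0 ± 40.9 CPM against 1242 ± 720 CPM (SD, n = 2), and the log2 fold change was 4.58 (SE 0.598). The neighbour of Crybb3, Crybb2, becomes a major crystallin only in the lens after birth. Crybb2 had 2 and 1 reads in wildtype and 45 and 30 in Nrf1-CKO libraries. Over the summed reads, 75 against 3, the ratio scaled for depth was 24.4 (exact 95% interval 8.03 to 121, for counting error only). Its fitted log2 fold change, 4.50 (SE 0.909), rests on these few reads.

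The 2 gamma crystallins of the group also differed in level. Crygn, gamma N crystallin, has features of both the beta and the gamma families. It had 161 and 294 reads in wildtype and 9321 and 3405 in Nrf1-CKO libraries. Its level was 2.90 ± 1.5 CPM against 76.7 ± 50.2 CPM (SD, n = 2), and the log2 fold change was 4.74 (SE 0.498). Crygs, the gamma crystallin of the later lens, had 7 and 2 reads in wildtype and 558 and 266 in Nrf1-CKO libraries. Over the summed reads, 824 against 9, the ratio scaled for depth was 89.3 (exact 95% interval 46.8 to 196, for counting error only). Its log2 fold change of 6.45 (SE 0.568) was the highest of the 10 genes and depends on 9 wildtype reads.

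Because longer transcripts give more reads, the genes were put in order of level after division by transcript length, as RPKM, that is CPM per kilobase of transcript. Cryaa was first in each of the 4 libraries, at 109.7 ± 68.3 RPKM in wildtype and 2276 ± 1300 in Nrf1-CKO (SD, n = 2). Cryba1 (61.6 ± 42.6 and 1398 ± 892 RPKM) and Crybb3 (58.3 ± 45.8 and 1392 ± 808 RPKM) came next and changed places between libraries. Crybb1 was the fourth in every library, at 36.1 ± 25.2 and 837 ± 504 RPKM. Cryba4 (13.8 ± 4.64 and 317 ± 224 RPKM) and Cryba2 (13.7 ± 6.92 and 248 ± 151 RPKM) followed, also in changing order. Crygn had 3.78 ± 1.96 and 99.8 ± 65.4 RPKM, and Cryab had 4.95 ± 1.00 and 43.2 ± 10.1 RPKM. Crygs was the ninth in every library, at a mean of 0.0611 RPKM in wildtype and 5.68 ± 2.83 in Nrf1-CKO, and Crybb2 was last, at 0.0200 and 0.499 ± 0.140 RPKM. In Nrf1-CKO the ranges of mean ± SD of neighbours in this order overlapped from Cryaa down to Cryab. In wildtype they also did so, apart from the step from Cryba2 to Cryab and Crygn. The steps down to Crygs and then to Crybb2 were larger than the SDs in Nrf1-CKO. These SDs include a difference between replicates that most of these genes shared. The overlap therefore does not describe the order within a library, which is given by the ranks above.

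The make-up of the crystallin reads, which are not scaled for length, varied far less than their amount. Cryaa contributed 47.5% and 45.5% of the reads of the 10 genes in wildtype and 43.6% and 45.1% in Nrf1-CKO libraries. Crybb3 contributed 14.2% and 18.6% against 19.0% and 19.5%, and Cryba1 contributed 15.1% and 16.4% against 17.1% and 15.9%. For Cryba1 the 2 groups overlapped in this share, and for Crybb3 the Nrf1-CKO libraries lay just above wildtype replicate 2. Cryab had a lower share in Nrf1-CKO, with 2.92% and 1.45% in wildtype and 0.611% and 1.07% in Nrf1-CKO libraries. For every 100 reads of Cryaa there were 6.15 and 3.19 reads of Cryab in wildtype and 1.402 and 2.376 in Nrf1-CKO libraries. Within each genotype, the library with more crystallin reads had the lower proportion of Cryab. For the divergent pair, there were 53.1 and 29.1 reads of Cryba4 per 100 reads of Crybb1 in wildtype and 36.5 and 30.3 in Nrf1-CKO libraries, so the groups overlapped. These shares were not tested.

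**Figure D2:**
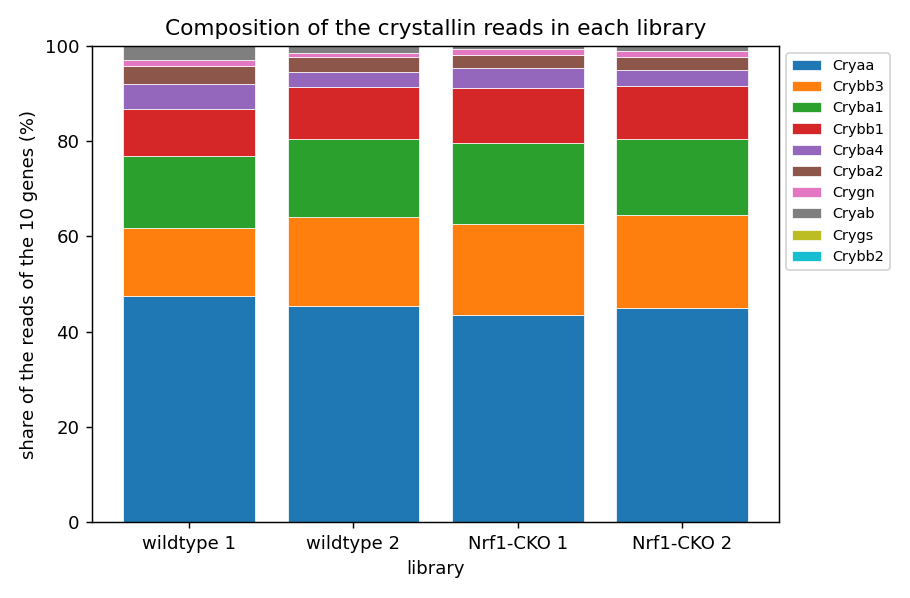
Share of each gene in the reads of the 10 crystallins (%, stacked bars to 100%) in each library, with no error bars, since each bar is 1 library. Cryaa makes up between 43.6% and 47.5% of each bar, and Crygs and Crybb2 are too small to be seen.

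The 2 replicates of each genotype differed in the crystallins by more than in most other genes. Nrf1-CKO replicate 1 was above replicate 2 for all 8 crystallins with at least 10 reads in every library, with a median CPM ratio of 2.50 (1.39 in Cryab to 2.99 in Cryba4). Wildtype replicate 2 was above replicate 1 for the same 8 genes, with a median ratio of 2.37 (1.33 in Cryab to 3.50 in Crybb3). Over the 13431 genes with a mean of at least 1 CPM, the median fold between replicates was 1.08 in wildtype and 1.09 in Nrf1-CKO, and its 95th percentile was 1.44 and 1.45. In each genotype 7 of the 8 crystallins, all but Cryab, lay past that percentile. The counts of Crybb2 and Crygs were also higher in Nrf1-CKO replicate 1, by 1.49 and 2.09 times in CPM, and their 2 and 7 reads in wildtype replicate 1 are too few to order the wildtype libraries. With 1 library left out at a time, the median log2 fold change of the 10 genes lay between 3.69 without Nrf1-CKO replicate 1 and 5.30 without wildtype replicate 2. No crystallin lost its sign, and the log2 fold change of Cryaa, for example, lay between 3.63 and 5.21.

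The 6 gamma A to F crystallins, structural proteins of the central fiber cells, were not among the 10 genes above. All 6 were called higher in Nrf1-CKO by edgeR, beside 12.8% of all genes tested. Their log2 fold changes ran from 4.34 (Crygb, SE 0.538, adjusted p = 0.000675 in edgeR) to 4.56 (Crygd, SE 0.496, adjusted p = 0.000347 in edgeR). Their median was 4.41, and it ran from 3.37 without Nrf1-CKO replicate 1 to 4.98 without Nrf1-CKO replicate 2. Their summed reads were 3824 and 5958 in wildtype and 163815 and 53878 in Nrf1-CKO libraries. The median CPM ratio of Nrf1-CKO replicate 1 over replicate 2 was 3.14 (2.61 to 3.66), and that of wildtype replicate 2 over replicate 1 was 1.88 (1.56 to 2.03). Crygb to Crygf shared from 11.9% (Crygf) to 27.1% (Cryge) of their 100-base windows with other gamma crystallins, so the assignment of reads among them is uncertain. Cryga shared 47.7% of its windows with the annotated gene Gm28845, and its count is uncertain for that reason. Of the 10 crystallins above, Cryaa shared 1.65% of its windows and Cryab 15.0%, and the other 8 shared none. All 16 crystallins together took 0.0210% and 0.0513% of the gene reads in wildtype and 1.11% and 0.438% in Nrf1-CKO libraries. Alpha crystallins made up between 36.4% and 39.7% of these reads in the 4 libraries, beta crystallins between 38.2% and 44.9%, and gamma crystallins between 15.8% and 22.1%.

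**Figure D3:**
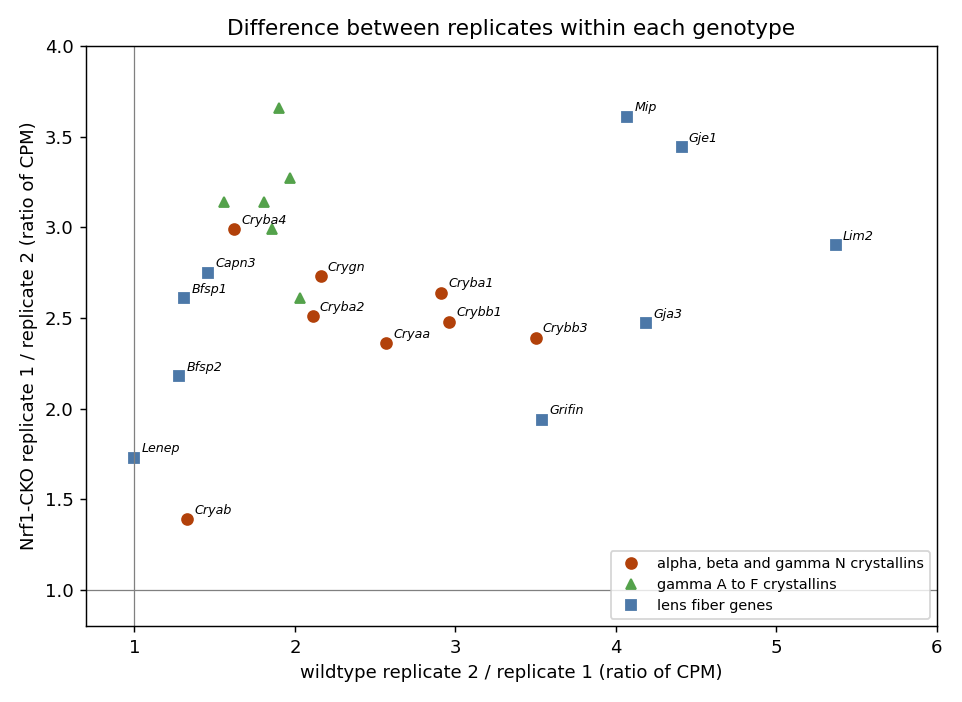
CPM ratio of Nrf1-CKO replicate 1 over replicate 2 against that of wildtype replicate 2 over replicate 1 for 8 alpha, beta and gamma N crystallins, 6 gamma A to F crystallins and 9 of 10 lens fiber genes (both axes linear, each point 1 gene, grey lines at a ratio of 1, no error bars). All points lie above 1 on the vertical axis and at or above 1 on the horizontal axis.

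Genes that build lens fiber cells beside the crystallins were also higher. Of 13 such genes, 11 could be tested and 9 were called higher by edgeR, beside 12.8% of all genes tested. The median log2 fold change over the 11 was 4.24. This median ran from 3.59 without Nrf1-CKO replicate 1 to 5.53 without wildtype replicate 2. Capn3, a calpain with lens transcripts, had 1475 and 1821 reads in wildtype and 36711 and 13304 in Nrf1-CKO libraries (log2 fold change 3.87, SE 0.421, adjusted p = 0.00035 in edgeR). Mip, the water channel of the fiber membrane, had 189 and 651 against 22511 and 6215 reads (5.005, SE 0.713, adjusted p = 0.00134 in edgeR). Lim2, a fiber membrane protein, had 53 and 241 against 6951 and 2386 reads (4.91, SE 0.675, adjusted p = 0.00112 in edgeR). Birc7 (1.38) and Lenep (0.50) were not called, and Lgsn and Dnase2b had too few reads to be tested. For the 10 fiber genes with at least 10 reads in every library, the median CPM ratio of Nrf1-CKO replicate 1 over replicate 2 was 2.54 (1.73 to 3.61). That of wildtype replicate 2 over replicate 1 was 3.81 (1.0 to 5.37). The same libraries were thus high and low for crystallins and for these fiber genes, apart from Lenep, whose wildtype libraries were level. The wildtype ratio was also small for Bfsp2 (1.28), Bfsp1 (1.31) and Capn3 (1.46).

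Of 12 regulators of lens development, 7 were called higher and none lower, beside 12.8% and 8.04% of all genes tested. The median log2 fold change of the 12 was 1.08. With 1 library left out at a time, this median ran from 0.58 without Nrf1-CKO replicate 1 to 1.43 without Nrf1-CKO replicate 2. The 4 with the highest mean CPM, which is not scaled for length, are also expressed by retinal progenitors, and none was called. Pax6, needed in both lens and retina, had a log2 fold change of 0.02 (adjusted p = 0.876 in edgeR), Meis1 of 0.09, Mab21l1 of 0.05 and Sox2 of -0.12. The sign of these values is not interpreted, since each was within 2 standard errors of 0. Of the 7 called higher, 3 are named here and were chosen after their values were seen. Hsf4, a heat shock factor of lens fibers, had 4 and 5 reads in wildtype and 380 and 205 in Nrf1-CKO libraries (log2 fold change 5.94, adjusted p = 0.000162 in edgeR). It passed the filter on low counts only through the Nrf1-CKO libraries, so its p is given as a description. Foxe3, a factor of the lens epithelium, had 22 and 59 against 678 and 482 reads (3.76, adjusted p = 0.000505 in edgeR). Maf, which binds crystallin promoters, had 1206 and 1304 against 6878 and 3819 reads (2.04, adjusted p = 0.00053 in edgeR). Of the 7 calls, that of Prox1 (0.73) was lost without Nrf1-CKO replicate 1 (0.44), and that of Tfap2a (1.42, adjusted p = 0.0844 in edgeR) without it (0.73), without wildtype replicate 2 (0.97), at an adjusted p of at most 0.05 and in the deposited values (0.39).

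The alpha crystallins have relatives among the other small heat shock proteins. Of 8 such genes, 6 were tested, with a median log2 fold change of 1.30. Of the 6, 4 were called higher by edgeR, beside 12.8% of all genes tested. Of these 4, Hspb2 and Hspb3 passed the filter on low counts only through the Nrf1-CKO libraries, so their calls are given as a description. Hspb1, a stress-induced chaperone, had 28 and 20 reads in wildtype and 107 and 98 in Nrf1-CKO libraries (log2 fold change 2.06, adjusted p = 0.0118 in edgeR). Hspb2, which overlaps Cryab, had a log2 fold change of 2.90 (adjusted p = 0.00951 in edgeR). Hspb3 was at 0 reads in both wildtype libraries and at 46 and 52 in Nrf1-CKO libraries, at least 15.8-fold higher when the wildtype is set to a floor of 3 counts per library. The median of the list was also 1.30 with Hspb3 at this bound. It moved to 2.19 without wildtype replicate 1 and to 0.59 without wildtype replicate 2, with 7 genes tested in each case. Hspb8 had a log2 fold change of 0.54 (adjusted p = 0.0457 in edgeR), which was not called without Nrf1-CKO replicate 2 (0.47), Hspb6 of -0.20 and Hspb11 of -0.25. In the deposited values Hspb1 (0.43), Hspb2 (0.47) and Hspb8 (0.29) were not called. Only 4 of the 6 had at least 10 reads in every library, and 2 of these 4 were called higher when that was required.

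Genes that carry crystallin in their name but are enzymes or hold betagamma domains in other proteins had smaller differences. Of 7 tested, 2 were called higher and none lower, beside 12.8% and 8.04% of all genes tested. The median log2 fold change of the 7 was 0.26. The oxidoreductase Cryz had a log2 fold change of -0.07 and Cryzl1 of -0.05, Cryl1 of 0.33 and Crym, which binds thyroid hormone, of 0.26. Crybg3 had -0.45 (adjusted p = 0.00536 in edgeR), just short of the 1.4-fold limit, and was called lower without wildtype replicate 1 (-0.49) or Nrf1-CKO replicate 1 (-0.53). Aim1 (0.53, adjusted p = 0.119 in edgeR) and Aim1l (1.56, adjusted p = 0.136 in edgeR) were called, and neither was called at an adjusted p of at most 0.05. The call of Aim1 was also lost without wildtype replicate 1 (0.50), wildtype replicate 2 (0.57) or Nrf1-CKO replicate 2 (0.45). That of Aim1l was lost without wildtype replicate 2 (0.97), Nrf1-CKO replicate 1 (1.398) or Nrf1-CKO replicate 2 (1.71). In the deposited values neither Aim1 (0.23) nor Aim1l (0.28) was called. Aim1l had 31 and 8 wildtype reads and needed the Nrf1-CKO libraries to pass the filter on low counts, so its call is given as a description. The value of Cryzl1 changed sign, to 0.09 without wildtype replicate 1 and to 0.04 without Nrf1-CKO replicate 2.

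**Figure D4:**
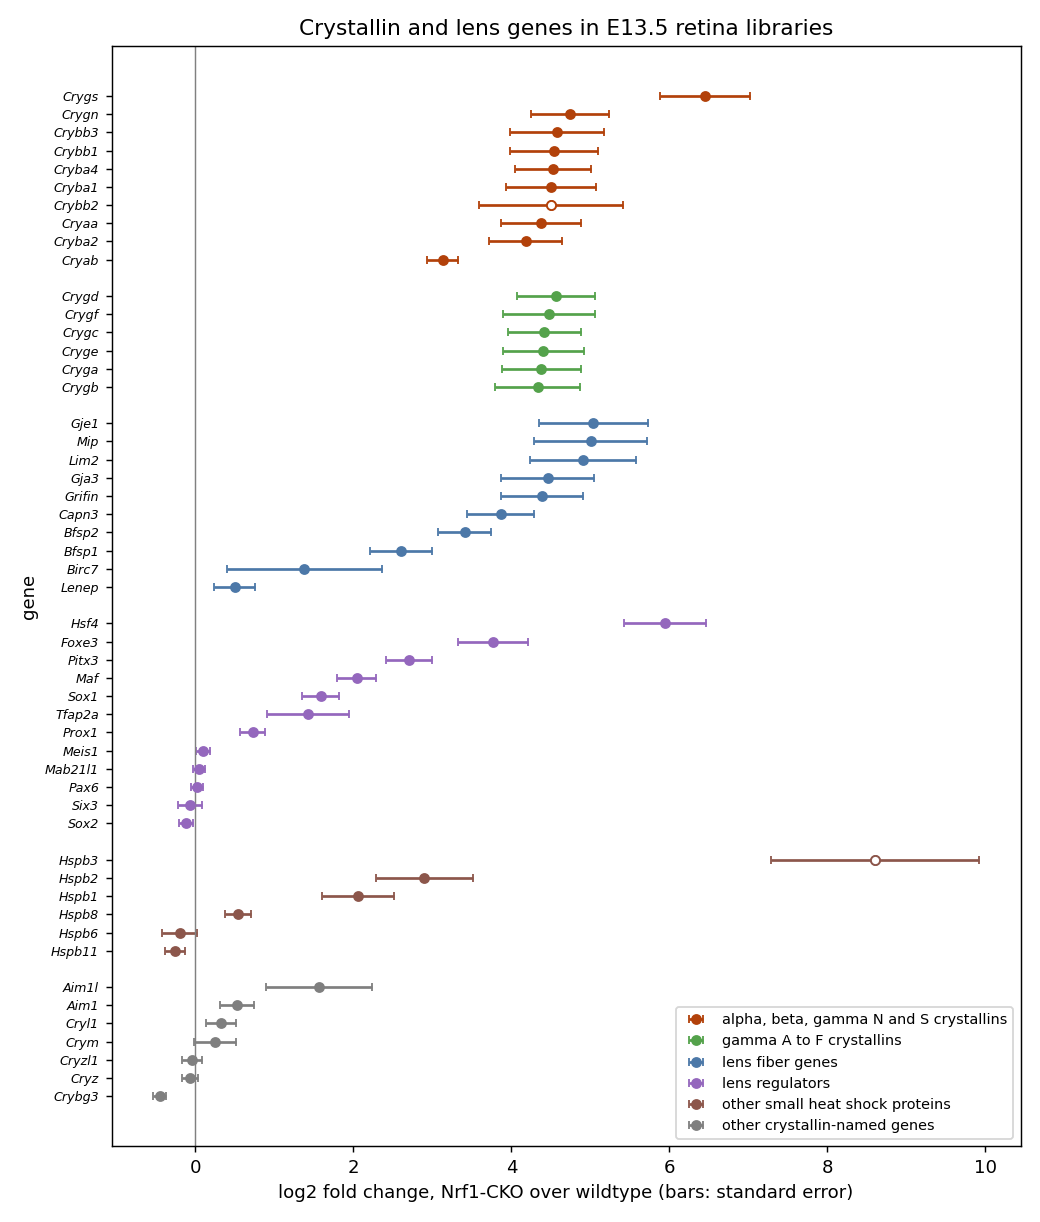
Log2 fold change of Nrf1-CKO over wildtype (edgeR, bars 1 standard error, 2 libraries per genotype) for crystallins, lens genes, small heat shock proteins and other genes named crystallin. The 10 crystallins lie between 3.13 and 6.45, and the open points mark Crybb2, with 3 wildtype reads in all, and Hspb3, with none, whose fitted values depend on the prior count and are no bounds.

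The nearest annotated gene of the count table on each side of each crystallin was examined next, at distances from 0 to 162517 bases. Of the 16 neighbouring genes outside the group, 14 were tested, 4 were called higher and 1 lower, beside 12.8% higher and 8.04% lower over all genes tested. The highest was Hspb2, at 2.90 beside Cryab at 3.13, which overlap as described above. On both sides of the Cryba4 and Crybb1 pair, which had log2 fold changes of 4.52 and 4.54, Tpst2 had 0.07 and Miat fell by 0.49 on the log2 scale (adjusted p = 0.00737 in edgeR). Miat, a long non-coding RNA of the nervous system, was not called under several other settings, such as DESeq2, and neither without wildtype replicate 2 (-0.38) nor without Nrf1-CKO replicate 2 (-0.40). Beside the Crybb2 and Crybb3 pair, Myo18b, 161896 bases from Crybb2, had 1.11 (adjusted p = 0.0892 in edgeR), and 2900026A02Rik had 0.46. The call of Myo18b was lost without wildtype replicate 1 (0.95) or Nrf1-CKO replicate 1 (0.30), at an adjusted p of at most 0.05 and in the deposited values (0.39). Next to Cryaa, U2af1 had 0.12 and Sik1 0.04. The neighbours of Cryba1, Nufip2 and Myo18a, had 0.03 and -0.08. Beside Crygn, Wdr86 had 0.73 (adjusted p = 0.00447 in edgeR) and Rheb -0.07. On the 2 sides of Crygs, Dgkg, 147982 bases away, had 2.01 (adjusted p = 0.006 in edgeR), and Tbccd1, 1637 bases away, had -0.11. On the other side of Cryab from Hspb2, 1110032A03Rik had -0.12. The neighbours of Cryba2, Fev and Mir375, had 0 reads in every library and were not tested.

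The genes whose pattern was most like that of the 10 crystallins were 4 other crystallins and a further lens gene. On log2 CPM, centred for each gene, the median profile of the 10 genes was -2.72 and -1.52 in wildtype and 2.96 and 1.57 in Nrf1-CKO libraries. Among 13422 other genes with a mean of at least 1 CPM, the smallest root mean square distances from this profile over the 4 libraries were those of Crygc (0.104), Cryga (0.165), Cryge (0.186), Crygb (0.202) and Grifin (0.214), a galectin-related gene of the lens. The distances of the 10 genes themselves ran from 0.104 in Cryaa to 0.963 in Crybb2. With 4 libraries in 2 groups, this likeness rests largely on the order and size of 4 values.

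Markers of other tissues and of the retina were read in the same libraries. Of 12 retinal progenitor markers none was called higher and 3 were called lower by edgeR, and their summed level was 8274 and 8914 CPM in wildtype and 6446 and 7026 CPM in Nrf1-CKO libraries, with Pax6, Rax and Six6 above 300 CPM throughout. None of these markers was at 0. Macrophage and microglia markers were called higher in 8 of 8, from 72.6 and 67.7 CPM in sum to 215 and 257 CPM. Ciliary margin markers were called higher in 7 of 8, surface ectoderm and cornea markers in 7 of 8, periocular mesenchyme markers in 6 of 9, pigment epithelium markers in 5 of 8 tested, endothelial markers in 5 of 7 with 1 lower, and erythroid markers in 1 of 5 tested. Over all genes tested, 12.8% were called higher and 8.04% lower. The endothelial sum was nearly level, at 258 and 263 CPM in wildtype and 266 and 255 CPM in Nrf1-CKO libraries. The summed level of surface ectoderm and cornea markers was 34.5 and 26.8 CPM in wildtype and 77.6 and 66.1 CPM in Nrf1-CKO libraries. The lens fiber sum given above differed between replicates as the crystallin sum did, by 2.51 times in Nrf1-CKO and 2.41 times in the wildtype, against 2.45 and 2.68 times for the 10 crystallins. The ciliary margin sum, at 431 CPM in both wildtype libraries and 727 and 806 CPM in Nrf1-CKO, did not follow that order.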

How the data were processed

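Total RNA of pooled E13.5 retinas was sequenced as paired-end reads. The authors aligned the reads to mm10 (GRCm38) and counted them per gene, and they deposited whole-number counts without normalization. The submitters' processing notes name TopHat2 2.7.2, HTSeq, DESeq and limma. The authors also deposited normalized values on a log2 scale, whose normalization is not given in the sources used here, and these served only as an alternative. Strand use in counting is not given in the sources used here.

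The 5 summary rows of the count table, between 74.0% and 75.0% of all entries, stayed out of library sizes and tests. Genes were filtered with edgeR 4.0.16 (filterByExpr, minimum count 10), scaled by TMM and compared with the quasi-likelihood test and Benjamini-Hochberg adjustment in R 4.3.3, with 2 libraries per genotype. Standard errors were derived from the F statistic. CPM is counts per 1000000 reads, with library sizes scaled by TMM. As in the study, a call needed a 1.4-fold change and an adjusted p no higher than 0.2. Libraries were grouped by the genotype in their titles, and p-values measure only the spread between pools. Coordinates and lengths come from GENCODE M21, promoters from RefSeq GRCm38.p6.

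The crystallins and all gene lists were chosen with earlier results of these data known. The text names all 10 crystallins, every gamma A to F crystallin as a group, the small heat shock proteins and genes named crystallin, the 4 genes of the lens lists with the highest mean CPM (1 of them is not reported here), the nearest annotated neighbours and the 5 most similar profiles. Whether libraries with the same number were paired is not known from the labels, and the main fit used no pairing. Deviations of same-numbered libraries had a correlation of -0.0025 over the genes tested. This value cannot show how the libraries were made. Alternatives were DESeq2 1.42.0, limma 3.58.1 on the deposited values, other scalings and filters, a replicate block and each library left out. Intervals cover counting error only, and PCR copies are not independent molecules.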

Additional observations from a re-analysis of the deposited data

How the results depend on the processing

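Under the alternatives run, every crystallin of the 10 kept its direction. The genes were selected on this contrast, so nothing is read from the count of their calls. With all 4 libraries in the fit, all 10 were called in each setting but 2. With at least 10 counts required in every library, 8 were tested and called. In the deposited normalized values tested with limma, 9 were called. In those values the median log2 fold change of the 10 was 3.60, that of Crybb2 was 0.42 and that of Crygs 1.44, and 945 genes were called higher, 723 lower and 1 small heat shock protein higher. Those values give a count of 0 a fixed level, and the cause of the smaller changes was not tested. With at least 10 counts in every library, 2 of 4 small heat shock proteins were called higher. With a replicate block, 1970 genes were called higher and 1256 lower, the median of the 10 crystallins was 4.53 and all 10 were called. DESeq2 called 1901 genes higher and 1199 lower, and upper-quartile scaling 2167 and 1156. Leaving out each library gave medians from 3.69 to 5.30 for the 10 crystallins, and from -0.161 to 0.088 for Cryzl1, whose sign turned without wildtype replicate 1 (0.088) and without Nrf1-CKO replicate 2 (0.0431). With 1 library left in a group, that library is assumed to vary like the others. Among the genes named for the lens, Birc7 was called without wildtype replicate 1 (4.45), which held 20 of its 21 wildtype reads, and Lenep without Nrf1-CKO replicate 2 (0.84) and under upper-quartile scaling (0.54). The medians of lens fiber genes, lens regulators, gamma A to F crystallins and small heat shock proteins were 2.41, 0.51, 3.38 and 0.36 in the deposited values. With at least 10 counts in every library the median was 0.73 for 11 lens regulators and 0.18 for 4 small heat shock proteins, and without a filter it was 0.73 for 8 small heat shock proteins. That of the enzymes and betagamma-domain genes was 0.11 with at least 10 counts and 0.096 in the deposited values. Depth limits Crybb2 and Crygs, with 3 and 9 wildtype reads in all.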
